A study of Mus musculus with 2 samples.

Results

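The genes described here encode the receptors for serotonin, dopamine, acetylcholine, noradrenaline and adrenaline. They were chosen by symbol alone, as every gene of the deposited tables named as a serotonin (Htr), dopamine (Drd), muscarinic (Chrm), nicotinic (Chrna, Chrnb) or adrenergic (Adra, Adrb) receptor subunit, which gave 46 of 32285 genes. They comprised 14 serotonin, 5 dopamine, 5 muscarinic, 13 nicotinic and 9 adrenergic genes. The levels of these genes were measured in hippocampal nuclei of mice, across cell classes and interneuron sub-clusters.

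The study profiled single nuclei of the hippocampus with droplet-based sequencing of messenger RNA 3' ends, in which each captured molecule carries a unique molecular identifier (UMI). The 2 libraries, 1 from male and 1 from female, came from 3-month-old Stra8-cKO mice of the genotype Stra8L/-; Nestin-Cre. Both libraries thus carried the same Stra8 alleles, labelled L and -, together with the Cre recombinase, which the Nestin promoter drives in neural progenitors and their descendants, and no library of another genotype was analysed here. No source used here gives the number of animals behind each library. The sex of the mice cannot be told apart from the animal, the dissection or the library, and with 1 library per sex no test of a difference was possible. All intervals below are exact 95% intervals that cover counting error only.

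Serotonin, dopamine and noradrenaline reach the hippocampus in long axons from the midbrain and brainstem, and acetylcholine comes mainly from the medial septum and diagonal band, with some from local neurons. Most of their receptors couple to G proteins: Gs raises cyclic AMP, Gi lowers it, and Gq releases calcium from internal stores. The nicotinic receptors and the serotonin receptor built on Htr3a are ion channels assembled from subunits around a pore. Which cell carries which receptor therefore sets whether a transmitter excites, inhibits or modulates that cell.

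The male library held 16174 barcodes and the female library 20150, of which 13830 and 17078 nuclei were kept, with a median of 4328 and 2665 UMIs per nucleus. The libraries shared 101 barcodes, 79 of them among kept nuclei. Classes were named from fixed marker lists and each name below means a class with such a profile, for example granule-like. In each of the 9 classes that reached 50 nuclei in both libraries, the summed level of the class's own 8 markers was above that in the other 8 classes. The libraries differed in makeup: granule-like neurons made up 29.2% of male and 10.1% of female nuclei, and unnamed clusters 7.09% and 30.6%. Nuclei of a choroid plexus-like cluster were present in the male library alone (25 nuclei), and its 8 markers summed to 2596 CPM (UMIs of a gene scaled to a common total of UMIs per class) in male and 235 CPM in female microglia-like nuclei. Nuclei of a thalamic or habenular-like cluster were present in the female library alone (150 nuclei). Stra8 itself, the targeted gene, had 3 male and 4 female UMIs, and without a library of another genotype this count checks nothing about the deletion.

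Levels are given in CPM of all UMIs of a class, in the order male then female. Receptor genes together took 94232 UMIs of the male and 125482 of the female kept nuclei, which is 0.120% and 0.143% of all UMIs. Chrm3, the M3 muscarinic receptor, alone held 50.8% of the receptor UMIs, followed by Htr4 at 9.59%, Htr1f at 8.42%, Chrna7 at 7.15% and Htr2c at 6.89%. These are long genes, and the ranking changed when UMIs were divided by genomic span. Per kilobase, the leading gene was Adra2c with 621 UMIs, followed by Chrm1 with 339.5, Htr2b with 269 and Htr1a with 239. Chrm3 had 229.96 over its 485 kb. The part of gene length in the UMI ranking was not tested. The summed level of all receptor genes was 2010.03 and 2444 CPM in CA1-like neurons, 1658 and 1807 in CA3-like neurons, and 579.7 and 599.9 in granule-like neurons. Oligodendrocyte-like nuclei had 349 and 220.02 CPM.

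Of the 46 genes, 35 reached 50 UMIs when the libraries were added together and 30 reached 200. Adrb3, Chrna1, Chrna2, Chrna3 and Chrnb3 had between 75 and 146 UMIs. The remaining 11 genes were at or near the detection limit: Htr3b and Chrna10 had 8 UMIs each, Adra2b, Chrna6 and Drd4 had 12 each, Chrna9 had 20, Chrm4 28, Htr1d 31, Chrm5 33, Chrnb4 34 and Drd3 40. A class call required a level at least 3-fold above that in all other kept nuclei in both libraries, with 1 CPM added to each level. The makeup of those other nuclei differed between the libraries, so the male and female folds of a gene have unlike references. By that rule 6 of the 35 receptor genes (17.1%) were enriched in a class, against 18.5% of all 19487 genes with 50 UMIs, so the share among receptors was near the background. At a 2-fold limit 15 of the 35 were called against 36.5% of all genes, and at a 5-fold limit 2 of the 35 against 9.75%. The share of all genes called was 5.13% in astrocyte-like, 3.87% in oligodendrocyte-like and 2.5% in oligodendrocyte precursor-like nuclei, 0.354% in CA3-like and 0.488% in subiculum or entorhinal-like neurons. The called genes described here were Htr4 in granule-like neurons, Htr5b and Chrna5 in CA1-like neurons, Chrm2 in interneurons, and Adra1a in interneurons and in 2 glial classes. The same class led in both libraries for 20 of the 35 genes.

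**Figure D1:**
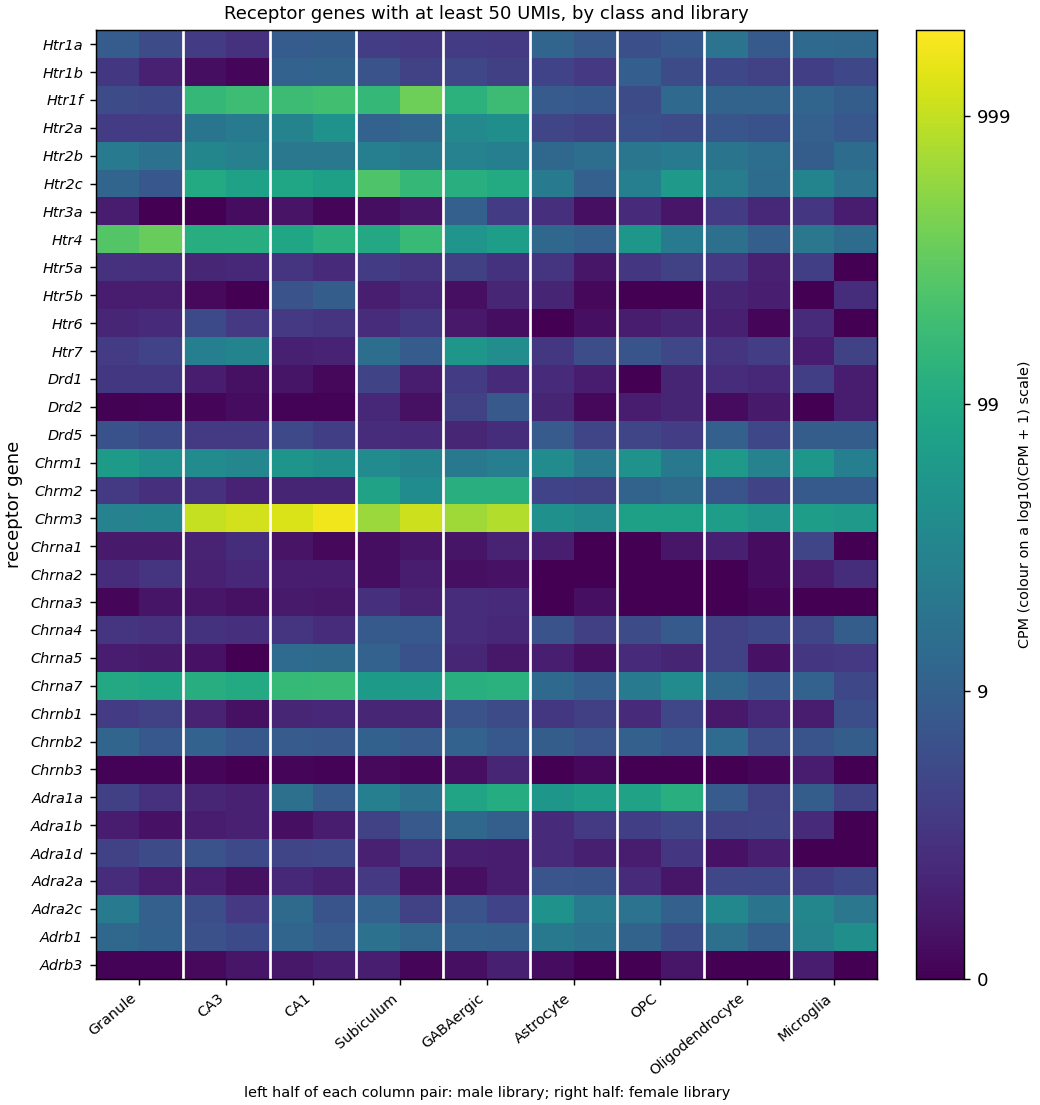
Level of receptor genes with at least 50 UMIs in each of 9 cell classes, male and female library side by side, as log-scaled CPM by colour. Chrm3 is bright across CA1-like, CA3-like, subiculum or entorhinal-like and interneuron columns and low in granule-like neurons (28.3 and 30.1 CPM), where Htr4 is high (262 and 340.2 CPM).

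Among the Gs-coupled serotonin receptors, Htr4 marked granule-like neurons, Htr7 interneurons and CA3-like neurons, and Htr6 was sparse. Htr4, a receptor that raises cyclic AMP, reached 262 CPM (interval 255 to 268) in male and 340.2 (329 to 351) in female granule-like neurons, 3.38-fold and 3.66-fold above all other nuclei. Of all genes tested, 0.939% were called in that class. The call was lost with no doublets removed (2.74-fold and 3.26-fold) and with a stricter filter of 1000 genes or more and mitochondrial UMIs up to 1% (2.70-fold and 2.92-fold). The other principal neurons stood below the granule-like level in both libraries: CA3-like neurons had 113 and 111 CPM, CA1-like neurons 89.3 and 124, and subiculum or entorhinal-like neurons 96.0 and 172. An Htr4 UMI was found in 66.7% and 75.4% of granule-like nuclei, at median depths of 5063 and 5664 UMIs. In astrocyte-like nuclei, taken as the low class, the share was 3.70% and 2.91% at 2807.5 and 3049 UMIs. With every nucleus thinned to 1000 UMIs the shares were 22.8% and 27.4% in granule-like and 1.00% and 1.02% in astrocyte-like nuclei, so the gap was present at equal depth.

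Htr7, the other Gs-coupled receptor with many UMIs, was at 54.1 and 41.1 CPM in interneurons and at 25.5 and 29.6 CPM in CA3-like neurons. CA1-like neurons had 0.933 and 1.13 CPM, which put these 2 pyramidal classes far apart in both libraries. No CA2 class was named in the main setting. At Leiden resolution 2 a CA2-like class held 219 and 130 nuclei, and the CA3-like class 583 and 536 in place of 758 and 628. Whether CA2 neurons contribute to the CA3-like values in this report was not tested. The interneuron enrichment of Htr7 was 6.05-fold in the male but 2.83-fold in the female library, so it missed the call. Unnamed clusters, part of the reference, made up 7.09% and 30.6% of nuclei, and their part in that gap was not tested. Htr6, which also couples to Gs, was highest in CA3-like neurons at 4.43 and 2.55 CPM, close to CA1-like neurons at 2.55 and 2.26 CPM.

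The Gi-coupled serotonin receptors divided into an abundant pyramidal and interneuron gene, Htr1f, and several sparse ones. Htr1f was at 184 and 200.1 CPM in CA1-like neurons, 156 and 185 in CA3-like neurons, 155 and 367 in subiculum or entorhinal-like neurons and 131 and 179.98 in interneurons. Granule-like neurons had 4.82 and 4.17 CPM, below astrocyte-like nuclei at 7.86 and 7.08, so the dentate neurons differed from every other neuronal class. Htr1b, a receptor known from axon terminals, was highest in CA1-like neurons at 9.95 and 10.2 CPM and nearly missing from CA3-like neurons at 0.341 and 0.141 CPM. Its CA1 enrichment of 2.59-fold and 2.50-fold was below the call.

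Htr5b was called in CA1-like neurons, at 6.03 and 8.54 CPM, 3.90-fold and 4.60-fold above other nuclei, or 1.90-fold and 2.23-fold with 5 CPM added to each level. CA3-like neurons had 0.227 CPM in the male library and no UMI in the female. The antisense gene Gm8217 overlaps Htr5b, and without stated strand use in the counting the reads of the pair cannot be told apart. Htr5a, its relative, was at 1.25 to 3.17 CPM in the male library and showed no leading class. Htr1a, the receptor best known for inhibiting hippocampal pyramidal cells, did not lead there in these libraries: it was at 8.15 and 8.48 CPM in CA1-like neurons, 2.84 and 1.98 in CA3-like neurons, 16.9 and 7.64 in oligodendrocyte-like and 12.4 and 11.9 in microglia-like nuclei. Both glial classes were shallow and also held granule neuron markers, and the part of neuronal RNA in their Htr1a values was not tested.

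Of the Gq-coupled serotonin receptors, Htr2c was the highest in each neuronal class other than granule-like neurons. Subiculum or entorhinal-like neurons had 248 and 155 CPM, interneurons 121 and 102, CA3-like neurons 102 and 75.4 and CA1-like neurons 84.9 and 74.4. Granule-like neurons had 11.1 and 6.94 CPM, lower than in any other class in each library. Within the subiculum or entorhinal-like class, Htr2c differed between the clusters that compose it: the Vwc2l cluster had 455 and 316 CPM, the Npsr1 and Tshz2 cluster 211 and 150.2, and the Fn1 cluster 134 and 86.6. The order of the 3 clusters was the same in both libraries.

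Htr2a, the receptor bound by classical hallucinogens, was at 28.8 and 48.2 CPM in CA1-like neurons and 34.7 and 43.1 in interneurons, against 2.80 and 2.78 in granule-like neurons. Htr2b varied less over classes, from 8.50 to 32.1 CPM in the male and 13.6 to 26.3 in the female library. It lies antisense to Psmd1, a proteasome gene found in each of the 9 classes at 68.3 to 104 CPM, and the reads of the pair cannot be told apart. Htr3a, the channel subunit of a set of interneurons, was at 9.16 and 2.81 CPM in interneurons, with a male to female ratio of 3.26 (interval 1.88 to 5.92). It had at most 2.82 CPM in any other of the 9 classes. The interneuron enrichment was 4.57-fold and 2.39-fold. It passed the 3-fold limit, at 5.03-fold and 3.05-fold, without the Gm2164 and Tshz2 interneuron sub-cluster, a choice made after seeing the data. Leading genes of that sub-cluster included Gm2164 and 1700007F19Rik, also leading genes of the CA1-like cluster, and Tshz2, a subiculum or entorhinal marker.

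Dopamine receptors were low in every class and none was called. Drd2, a Gi-coupled receptor, was highest in interneurons at 3.52 and 7.34 CPM and had 0.0622 and 0.0628 CPM in CA1-like neurons. Its enrichment in interneurons was 2.79-fold and 2.36-fold. Drd1, a Gs-coupled receptor, was at 2.41 CPM in granule-like neurons of both libraries, with subiculum or entorhinal-like neurons at 3.77 and 0.843 CPM on either side of it. Drd5, the other Gs-coupled dopamine receptor, was about as high in glial classes as in neurons: oligodendrocyte-like nuclei had 9.38 and 4.26 CPM, microglia-like 8.50 and 8.53, and granule-like neurons 5.85 and 4.54. Both glial classes were shallow, at medians of 1653 and 1725.5 and of 1540.5 and 1602 UMIs, and also held granule neuron markers. The part of neuronal RNA in their Drd5 values was not tested. Drd5 was higher still in an unnamed cluster with medians of 1328 and 968 UMIs.

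Among muscarinic receptors, Chrm3 was a receptor of pyramidal neurons and interneurons, Chrm2 of interneurons, and Chrm1 showed little difference between classes. Chrm3, which couples to Gq, was at 1282 CPM (interval 1264 to 1299.6) in male and 1673 (1653 to 1693) in female CA1-like neurons. CA3-like neurons had 1009 and 1182 CPM, interneurons 666 and 822, and subiculum or entorhinal-like neurons 639.6 and 1116. The interneuron class includes the Gm2164 and Tshz2 sub-cluster (31 male and 88 female nuclei). CA1 neuron markers summed to 5692 and 6494 CPM in the class, and without the sub-cluster Chrm3 in interneurons was at 683 and 751 CPM. Granule-like neurons, at 28.3 and 30.1 CPM, were below every other class, glia included. A Chrm3 UMI was found in 90.7% and 97.9% of CA1-like nuclei (63.2% and 74.2% when thinned) at median depths of 8385 and 9065.5 UMIs. The share in granule-like nuclei was 12.3% and 11.8% (2.68% and 3.08% when thinned). The CA1 enrichment was 3.42-fold in the male and 2.92-fold in the female library, just outside the call.

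Chrm2, a Gi-coupled receptor often found on interneuron membranes and cholinergic terminals, was at 121 CPM (interval 112 to 131) in male and 118 (110.04 to 127) in female interneurons. The enrichment was 6.93-fold and 4.50-fold, where 1.32% of all genes were called in interneurons. At Leiden resolution 0.5 it was 11.6-fold and 13.6-fold, but the class then held 689 male and 1680 female nuclei in place of 571 and 509. The share of interneurons with a Chrm2 UMI was 29.4% and 31.8% at median depths of 8683 and 10254 UMIs, and 7.53% and 8.10% when thinned. CA1-like neurons, at similar depth, had 1.18 and 1.19 CPM and a share of 0.866% and 1.19%, or 0.116% and 0.0631% when thinned. The second class was subiculum or entorhinal-like neurons at 79.7 and 39.2 CPM, and there the Fn1 cluster had 9.40 and 11.6 CPM while the Vwc2l cluster had 171 and 90.9.

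Chrm1, the Gq-coupled M1 receptor, is classically described in pyramidal and granule neurons. Here it was at 61.4 and 44.8 CPM in granule-like neurons, 49.8 and 42.5 in CA1-like neurons and 20.8 and 24.8 in interneurons. Oligodendrocyte-like nuclei had 57.7 and 28.4 CPM and microglia-like nuclei 55.6 and 25.6, as high as neurons in the male library and lower than principal neurons in the female. The oligodendrocyte-like class sat in different clusters in each library, 1 with 2222 male and 212 female nuclei and 1 with 125 and 3380. Within the first Chrm1 was at 58.5 and 31.4 CPM (235 and 12 UMIs), and within the second at 44.7 and 28.2 CPM (11 and 181 UMIs). The level in its highest class was 2.27-fold that in its lowest, as means of both libraries with 1 CPM added. The markers of granule neurons summed to 731 and 440.3 CPM in oligodendrocyte-like and to 765 and 426 CPM in microglia-like nuclei, also higher in the male library, and their part in the Chrm1 values was not tested.

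**Figure D2:**
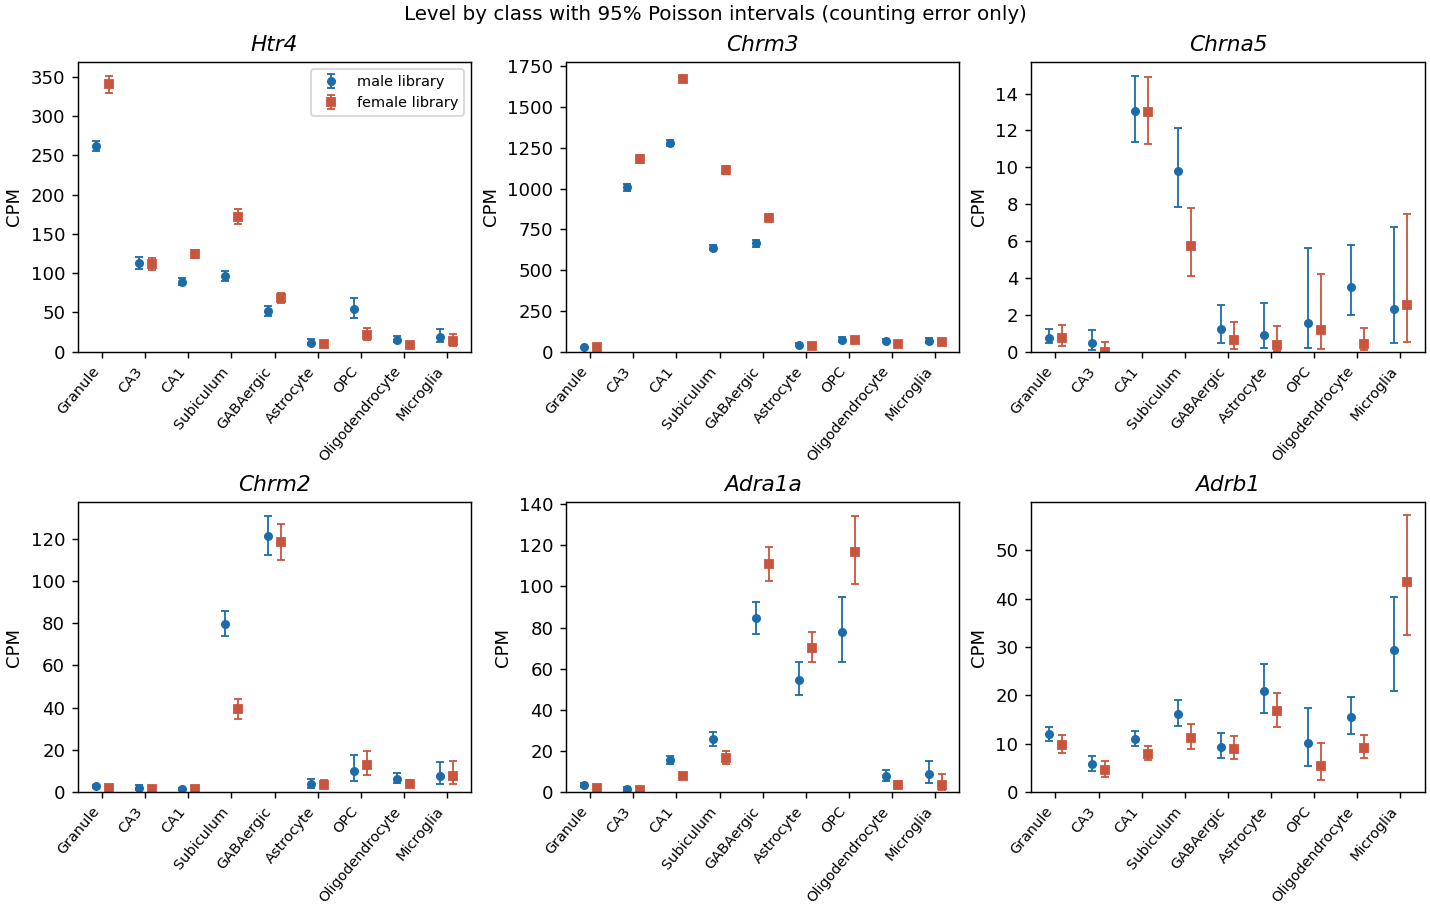
Level in CPM, on linear axes from 0, of Htr4, Chrm3, Chrna5, Chrm2, Adra1a and Adrb1 in each of 9 cell classes, with points for the male and female library and bars for exact 95% Poisson intervals. Chrm3 and Chrna5 peak in CA1-like neurons, Htr4 in granule-like neurons, and Adrb1 in microglia-like nuclei at 29.4 and 43.5 CPM.

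Of the nicotinic subunits, Chrna7 was found across neurons, Chrna5 mainly in CA1-like neurons, and the other subunits were sparse. Chrna7, which forms channels of high calcium permeability on its own, was at 162 and 169 CPM in CA1-like neurons, 117 and 128 in interneurons, 113 and 103 in CA3-like and 96.0 and 86.3 in granule-like neurons. Subiculum or entorhinal-like neurons were lowest among neurons with 61.7 and 57.4 CPM, and microglia-like nuclei had 10.0 and 4.26. A Chrna7 UMI was found in 66.7% and 68.7% of CA1-like nuclei against 1.65% and 0.711% of microglia-like nuclei, at median depths there of 1540.5 and 1602 UMIs. When thinned, the shares were 12.6% and 14.8% against 1.19% and 0.312%.

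Chrna5, an accessory subunit that alters the properties of channels built on other subunits, was at 13.1 CPM (interval 11.4 to 14.96) in male and 13.0 (11.3 to 14.9) in female CA1-like neurons. CA3-like neurons had 0.455 CPM and no UMI, so the pyramidal fields again stood apart in both libraries. The enrichment in CA1-like neurons was 4.07-fold and 4.88-fold, where 0.328% of all genes were called in that class. A Chrna5 UMI was found in 11.1% of CA1-like nuclei in each library, or 0.869% and 1.26% when thinned. On thinned counts the enrichment was 2.29-fold in the male library, which ends the call, and 5.18-fold in the female. In subiculum or entorhinal-like neurons, at 9.82 and 5.76 CPM, the Vwc2l cluster had 29.0 and 14.1 CPM and the Npsr1 and Tshz2 cluster 0.324 CPM and no UMI.

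On chromosome 9 of GRCm38, Chrna5 (chr9:54980880-55007779, plus strand) is followed by Chrna3 (chr9:55010111-55026562) and Chrnb4 (chr9:55028154-55048779), both on the minus strand. These neighbours, subunits of a common autonomic nicotinic receptor, did not share its level: Chrna3 was at 0.747 and 0.628 CPM in CA1-like neurons, and Chrnb4 had 34 UMIs in all kept nuclei. Chrna4 and Chrnb2, which together form the main high-affinity nicotine receptor of the brain, were low. Chrna4 led in subiculum or entorhinal-like neurons at 7.65 and 7.16 CPM, and Chrnb2 was the flattest of the 30 genes with at least 200 UMIs, with a highest to lowest class ratio of 1.21. Chrnb2 overlaps Adar on the other strand. Chrnb1, best known from muscle, was at 5.99 and 4.84 CPM in interneurons.

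Adrenergic receptors covered both neurons and glia, and each of the abundant ones had its own set of classes. Adra1a, a Gq-coupled receptor, was at 84.4 CPM (interval 77.0 to 92.3) in male and 111 (103 to 119) in female interneurons, and at 77.9 (63.3 to 94.7) and 117 (101 to 134) in oligodendrocyte precursor-like nuclei. Astrocyte-like nuclei had 54.7 and 70.2 CPM. The intervals of interneurons and precursors overlapped in both libraries, so their order could not be read. CA3-like neurons had 1.25 and 0.990 CPM. The interneuron enrichment was 5.83-fold and 6.16-fold, and the 3-fold limit was also passed in the precursors (4.20-fold and 5.09-fold) and, barely, in astrocyte-like nuclei (3.06-fold and 3.23-fold). The astrocyte call was lost under several settings, among them with no doublets removed (1.82-fold and 2.39-fold). An Adra1a UMI was found in 37.0% and 42.4% of interneurons and in 1.45% and 1.11% of CA3-like nuclei at median depths of 10699.5 and 10224 UMIs. When thinned, the interneuron shares were 10.2% and 9.29%.

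Adra1b, its relative, was highest in interneurons at 11.8 and 9.05 CPM, with enrichments of 4.04-fold and 1.83-fold that put it outside the call in the female library. Adra1d was at 5.91 and 4.38 CPM in CA3-like neurons and 3.40 and 4.63 in granule-like neurons. The Gi-coupled Adra2a and Adra2c were highest in astrocyte-like nuclei, Adra2a at 6.35 and 6.12 CPM and Adra2c at 46.5 and 21.4 CPM. Their enrichments there, 2.78-fold and 2.79-fold for Adra2a and 2.80-fold and 2.45-fold for Adra2c, were below the call.

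Adrb1, a Gs-coupled beta receptor, was at 29.4 and 43.5 CPM in microglia-like and 20.8 and 16.6 CPM in astrocyte-like nuclei. These were its highest levels among the 9 classes in both libraries, and CA3-like neurons, its lowest in each, had 5.68 and 4.53 CPM. The microglia-like class was shallow, at medians of 1540.5 and 1602 UMIs, and held 1294458 and 1172526 UMIs in all. The microglial enrichment was 2.35-fold and 4.10-fold, so it missed the call in the male library, in a class where 6.64% of all genes were called. Adrb3, another beta receptor, had 79 UMIs in all.

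Within GABAergic interneurons, 571 male and 509 female nuclei were divided into sub-clusters without use of the receptor genes, and 11 sub-clusters held at least 20 nuclei from each library. Of 18 receptor genes with at least 50 UMIs in interneurons, 7 were at least 3-fold above all other interneurons in a sub-cluster in both libraries, against 4.35% of 12335 genes, among which are the genes that built the sub-clusters. These were Chrm2, Htr2c, Htr3a, Adra1a, Adra1b, Chrna7 and Drd2. Sub-clusters are named here by subtype where markers allowed it (Lamp5, Vip, Cck, Sst) and otherwise by their leading genes. No sub-cluster was named for parvalbumin, although Pvalb itself was at 97.3 and 51.0 CPM in the Pthlh and Vipr2 sub-cluster and at 83.5 and 50.4 CPM in the Corin and Mybpc1 sub-cluster.

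Chrm2 and Htr1f were both high in the Pthlh and Vipr2 sub-cluster, which led for Chrm2 in both libraries and for Htr1f in the male library. There (27 and 22 nuclei) Chrm2 was at 458 CPM (interval 377 to 551) and 413 (328 to 514), and Htr1f was at 551 and 449 CPM. The Akr1c18 and Gfra1 sub-cluster had Chrm2 at 250.3 and 233 CPM and Htr1f at 428 and 462 CPM, the latter the highest in the female library. Chrm2 had no UMI in either Lamp5 sub-cluster, which allows up to 5.24 and 5.54 CPM in the larger one at 3 counts. It had 25.5 and 11.5 CPM in the Vip and 11.3 and 15.4 in the Cck sub-cluster. Beside Chrm2, its antisense partner 9330158H04Rik was at 68.9 and 107 CPM in the Pthlh and Vipr2 sub-cluster. Without stated strand use the reads of the pair cannot be told apart, and the partner was not held out of the clustering.

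Htr2c and Chrm3 were highest in another group of interneurons. Htr2c was at 501 and 381 CPM in the Vip and 275 and 295 in the Cck sub-cluster, and at 16.2 and 5.10 in the Pthlh and Vipr2 sub-cluster. Its Vip enrichment was 7.86-fold and 4.60-fold. Chrm3 was at 1568 and 1732 CPM in the Vip, 1323 and 1336 in the Cck and 1209 and 1603 in the larger Sst sub-cluster, against 466 and 329.6 in the Sst sub-cluster with Npy and 134 and 189 in the Pthlh and Vipr2 sub-cluster. The interneurons highest in Chrm2 were thus lowest in Chrm3 in the male library and near the lowest in the female. Htr3a was split between Cck at 54.7 and 20.5 CPM (29 and 8 UMIs) and Vip at 26.8 and 13.8 CPM (20 and 6 UMIs).

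The 300 bases around the RefSeq start of these 4 genes (250 before to 50 after, build GRCm38.p6) are shown because each pair was high in a common sub-cluster, Chrm2 and Htr1f in the Pthlh and Vipr2 and Htr2c and Chrm3 in the Vip sub-cluster. Capitals mark the only matches to the 4 motifs searched on both strands, which were the TATA box TATAAA, the cyclic AMP response element TGACGTCA, the E-box CAGCTG and the GC box GGGCGG. The capitals are CCGCCC, the other strand of GGGCGG.
Chrm2 (chr6:36387834-36388133, plus strand): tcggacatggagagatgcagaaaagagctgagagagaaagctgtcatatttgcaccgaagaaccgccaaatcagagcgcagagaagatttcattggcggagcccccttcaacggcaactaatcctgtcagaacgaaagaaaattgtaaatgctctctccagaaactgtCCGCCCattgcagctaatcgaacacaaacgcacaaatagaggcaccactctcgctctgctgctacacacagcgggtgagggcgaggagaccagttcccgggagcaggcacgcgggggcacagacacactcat
Htr1f (chr16:65105735-65106034, minus strand): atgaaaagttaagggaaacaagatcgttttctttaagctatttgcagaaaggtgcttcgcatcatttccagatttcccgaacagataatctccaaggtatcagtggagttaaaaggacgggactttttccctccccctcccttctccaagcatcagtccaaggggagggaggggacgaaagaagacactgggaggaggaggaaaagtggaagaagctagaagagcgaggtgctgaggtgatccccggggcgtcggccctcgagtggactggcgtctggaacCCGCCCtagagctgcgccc
Htr2c (chrX:146962263-146962562, plus strand): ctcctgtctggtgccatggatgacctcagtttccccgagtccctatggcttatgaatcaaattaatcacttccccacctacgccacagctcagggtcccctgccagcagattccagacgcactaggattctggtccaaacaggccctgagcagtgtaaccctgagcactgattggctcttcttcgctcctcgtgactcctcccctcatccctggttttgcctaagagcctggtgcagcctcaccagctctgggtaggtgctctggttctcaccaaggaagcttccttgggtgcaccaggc
Chrm3 (chr13:10360754-10361053, minus strand): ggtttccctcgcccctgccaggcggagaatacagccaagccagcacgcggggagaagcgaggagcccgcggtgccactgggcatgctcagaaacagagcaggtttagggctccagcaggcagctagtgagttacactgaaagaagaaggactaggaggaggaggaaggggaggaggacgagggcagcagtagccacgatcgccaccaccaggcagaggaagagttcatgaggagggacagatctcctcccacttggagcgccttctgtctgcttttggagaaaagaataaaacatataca
GGGCGG was present in 35.7% of the 32851 RefSeq windows of this length and in 23 of the 40 windows of the receptor genes, 35 of which matched by symbol. TATAAA was present in 13.6% of all windows and 2 receptor windows, TGACGTCA in 1.79% and none, and CAGCTG in 16.3% and 6. The Chrm2 and Htr1f windows held 16 and 13 CpG dinucleotides and those of Htr2c and Chrm3 held 5 and 11, against a median of 7 over all windows. A match is a description of these letters and says nothing of a factor.

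Adra1a, Adra1b and Chrna7 were highest in Lamp5 interneurons, whereas Adra2c (57 UMIs in interneurons) was called in no sub-cluster. Adra1a was at 229 and 395 CPM in the larger Lamp5 sub-cluster and 402 and 383 in the Ndnf and Sv2c Lamp5 sub-cluster, against 4.05 and 5.10 CPM (1 UMI in each library) in the Pthlh and Vipr2 sub-cluster. Adra1b was at 59.2 and 43.1 CPM (15 and 9 UMIs) in the Ndnf and Sv2c sub-cluster, 5.68-fold and 4.95-fold above other interneurons. Chrna7 was at 351 and 474 CPM there and at 15.5 and 16.8 CPM in the Corin and Mybpc1 sub-cluster. The Ndnf and Sv2c Lamp5 sub-cluster thus had the highest Chrna7 level and no Chrm2 UMI in both libraries.

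The remaining receptors showed smaller or less certain differences. Drd2 was called in the larger Sst sub-cluster at 12.2 and 41.7 CPM, from 7 and 18 UMIs. Htr7 was at 145 and 62.8 CPM in the larger Lamp5 and 124 and 108 in the Cck sub-cluster. Apart from the Gm2164 and Tshz2 sub-cluster, Htr4 was highest in the Hpgd and Qrfpr sub-cluster in the male library (136 CPM, female 80.5). In the female library it was highest in an Sst sub-cluster with Npy (94.8 CPM, male 78.0). Chrna2, a marker of a known class of oriens interneurons, had 1 UMI in male and none in female Sst nuclei, so it could not be used here.

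**Figure D3:**
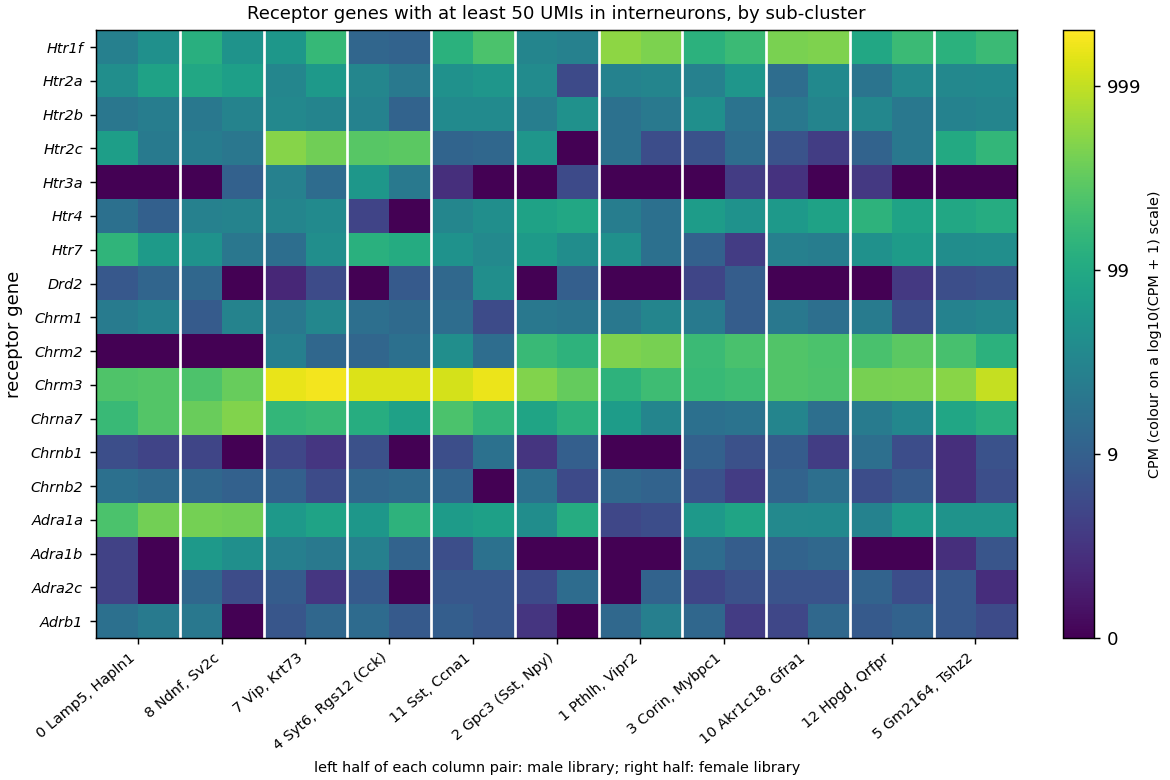
Level of the 18 receptor genes with at least 50 interneuron UMIs in 11 interneuron sub-clusters, male and female side by side, as log-scaled CPM by colour. Chrm2 is brightest in the Pthlh and Vipr2 sub-cluster, Htr1f there and in the Akr1c18 and Gfra1 sub-cluster, Htr2c and Htr3a in the Vip and Cck sub-clusters, and Adra1a and Chrna7 in the Lamp5 sub-clusters.

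Smaller and unnamed groups of nuclei held the extremes of some receptors. In the 25 choroid plexus-like nuclei of the male library, Htr2c was at 6378 CPM (interval 5952 to 6827, 832 UMIs) and had a UMI in every nucleus, or in 92.0% when thinned. That is the highest level of any receptor gene in any class, with no female nuclei to set beside it. In the 150 thalamic or habenular-like nuclei of the female library, Chrm2 was at 106 CPM, Htr7 at 58.6, Adra1b at 36.6 and Adrb1 at 28.2. Chrm3 was also counted in pericyte or smooth muscle-like nuclei at 267 and 259 CPM (55 and 71 UMIs) and in endothelial-like nuclei at 231 and 247 CPM (30 and 147 UMIs). In the endothelial-like nuclei the CA1 neuron markers summed to 1737 and 1399 CPM, against 575 and 555 in astrocyte-like nuclei. The part of neuronal RNA in these Chrm3 values was not tested.

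Among unnamed clusters, the one led by Ebf2, Ebf3 and Pld5 had Chrm2 at 353 and 127 CPM, Htr2c at 194 and 337 CPM and Htr7 at 48.3 and 40.7 CPM. This cluster held 120 male and 1189 female nuclei. Its leading genes also included 9330158H04Rik, the antisense partner of Chrm2, and the reads of that pair cannot be told apart. The cluster led by Ywhah, Rab3a and Nptxr (651 and 996 nuclei), with medians of 1328 and 968 UMIs, had Chrm1 at 118 and 47.2 CPM, Adra2c at 59.8 and 44.5 CPM and Drd5 at 27.5 and 21.4 CPM. Chrm1 was higher there than in any of the 9 named classes.

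Levels in the male and female libraries were compared for 135 pairs of a receptor gene and a class with at least 50 UMIs, on log2 CPM with 5 CPM added to each level. In 4 pairs the levels differed by 2-fold or more, against 0.902% of 106962 pairs over all genes. The male level was the higher in 2 of them (0.507% over all genes) and the female level in the other 2 (0.395%). In 93 of the 135 pairs (68.9%) the male value was the higher, against 63.9% of the pairs over all genes. The median difference of receptor genes was 0.54 (log2) in oligodendrocyte-like nuclei, where the median gene was at 0.10. Within the 2 clusters of that class, which are split by library, the median of the same 15 genes was 0.05 and 0.15, where the median gene was at 0.08 and 0.04. The first held only 212 female and the second only 125 male nuclei, in which Chrm1, for example, had 12 and 11 UMIs. The 5 CPM added shrinks ratios of such sparse counts, and the part of cluster makeup in the class median was not tested. The receptor median was 0.01 in CA1-like neurons, where the median gene was at 0.09, and -0.14 in oligodendrocyte precursor-like nuclei, with 2 of 7 genes higher in the male library, where the median gene was at 0.06.

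Oligodendrocyte precursor-like nuclei held 3 of the 4 pairs, among 7 receptor genes compared there. In that class 1.54% of 8423 genes differed by 2-fold or more, against 2.48% in microglia-like nuclei and 0.272% in CA1-like neurons. Chrm1 was at 48.3 CPM (62 UMIs) and 20.6 CPM (35 UMIs), a ratio of 2.35 (interval 1.53 to 3.66). Htr4 was at 54.5 CPM (70 UMIs) and 21.7 (37 UMIs), a ratio of 2.51 (1.66 to 3.84). Htr2c went the other way, at 25.7 CPM (33 UMIs) and 57.6 (98 UMIs), a ratio of 0.446 (0.291 to 0.668). When thinned, a Htr2c UMI was found in 1.81% and 2.61% of these nuclei, and a Htr4 UMI in 3.37% and 1.41%. In the same nuclei the granule neuron markers summed to 858 and 537 CPM, the interneuron markers to 2629 and 2916 and the choroid plexus markers to 1377 and 132, with Otx2 and Aqp1 at 0 in the female library. The part of these in the receptor differences was not tested. All 3 differences fell under 2-fold with the stricter filter, where the male to female ratio with 5 CPM added was 1.61 for Chrm1, 1.15 for Htr4 and 0.796 for Htr2c, and with no doublets removed, where it was 1.64, 1.44 and 0.614. At a finer clustering (Leiden resolution 2) the ratio was 1.06 for Htr2c, with the direction turned.

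The fourth pair was Htr1f in subiculum or entorhinal-like neurons, at 155 CPM (1357 UMIs) and 367 CPM (2611 UMIs), a ratio of 0.4223 (interval 0.395 to 0.451). With 5 CPM added the ratio was between 0.335 and 0.434 under every alternative run. With 1 CPM added it was 0.424, and with 20 CPM added 0.452. The female value was the higher in each cluster of the class, by different amounts: 199.3 and 407 CPM in the Fn1 cluster, 22.0 and 134 in the Npsr1 and Tshz2 cluster and 266 and 331 in the Vwc2l cluster. The Npsr1 and Tshz2 cluster, the lowest in Htr1f, held 482 male but only 51 female nuclei. Chrm2 in the same class was 2.03 times as high in the male library (interval 1.77 to 2.34), and there the cluster values were 84.5 and 90.3 CPM in the Npsr1 and Tshz2 cluster and 171 and 90.9 in the Vwc2l cluster.

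**Figure D4:**
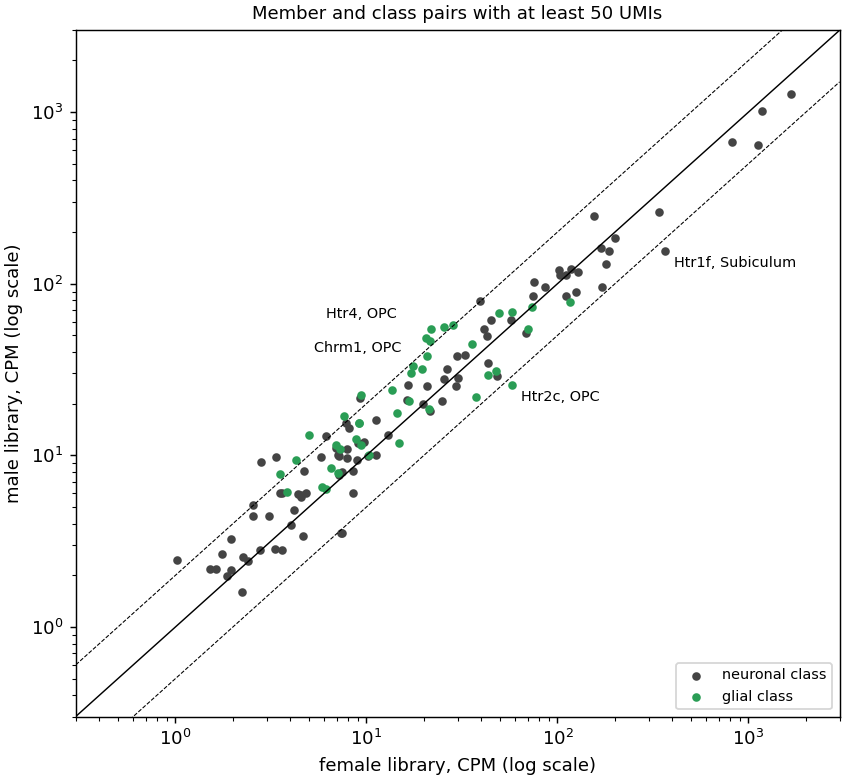
Male against female level in CPM, both axes on a log scale, for 135 pairs of a receptor gene and a cell class, with the line of equality and dashed lines at 2-fold without added CPM. The 4 labelled pairs, those past 2-fold with 5 CPM added, are Chrm1, Htr4 and Htr2c in oligodendrocyte precursor-like nuclei and Htr1f in subiculum or entorhinal-like neurons, the last at 155 and 367 CPM.

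Receptor genes with long introns had a wider spread of level over classes, but they also included the genes with the most UMIs. Of the 30 genes with at least 200 UMIs, 19 had introns of 10 kb or more in total. Their median ratio of the highest to the lowest class, with 1 CPM added to each level, was 10.5. In the other 11, the median ratio was 4.62. The 19 reached 111615 UMIs (Chrm3), whereas none of the 11 was above 2138 (Adra2c). The added 1 CPM limits the ratio of a sparse gene, so intron length and level cannot be told apart here. These ratios are a description over genes, which share nuclei and depth, and no source used here says whether intronic reads were counted.

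**Figure D5:**
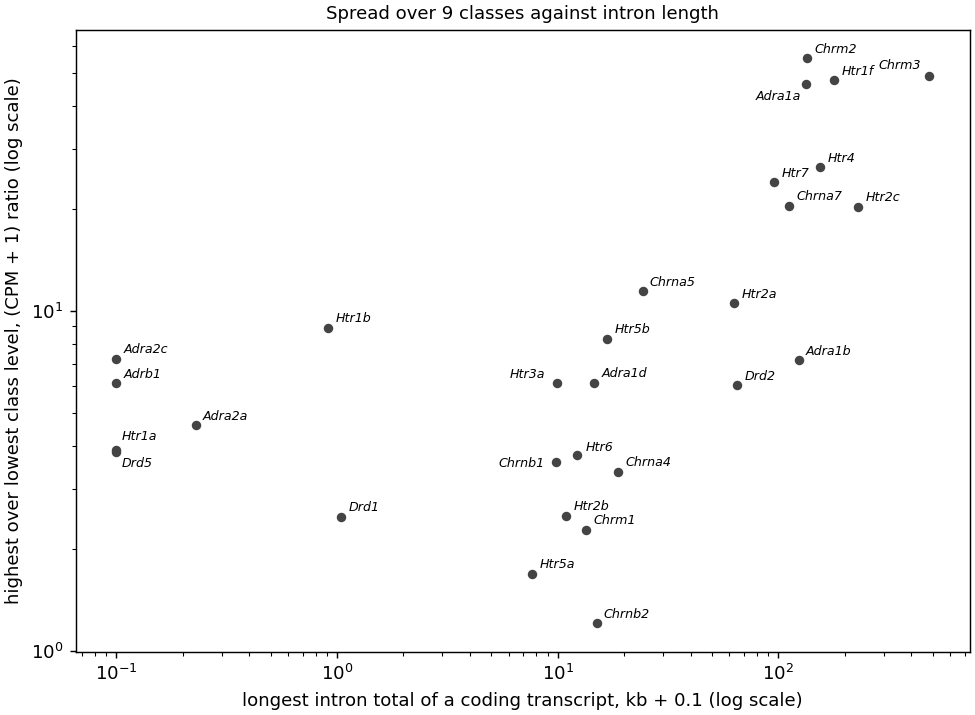
Total intron length in kb (the longest of the coding transcripts, with a small offset) against the ratio of the highest to the lowest class level (1 CPM added to each), both on log axes, for receptor genes with at least 200 UMIs. Chrm2 has the highest ratio (55.2) and Chrnb2 the lowest (1.21).

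Genes of the same signalling systems, taken from lists chosen with earlier results of these data known, were measured beside the receptors. Unlike the receptor genes, these genes were not held out of the clustering, so their calls are not independent of the classes. Gna14 and Lypd6b, for example, were among the leading genes of an interneuron cluster. The share of all genes with a class call, 18.5%, stands beside each count below, and in single classes it was 5.13% in astrocyte-like and 6.64% in microglia-like nuclei. Of 13 transmitter enzymes and transporters with enough UMIs, 5 passed the class call: Maob, which breaks down monoamines, in astrocyte-like nuclei (69.5 and 68.5 CPM), Slc29a4, a low-affinity monoamine transporter, in granule-like neurons (43.5 and 34.7), Slc5a7, the choline transporter, and Slc22a3, an extraneuronal monoamine transporter, in oligodendrocyte precursor-like nuclei (31.9 and 15.9, and 5.45 and 4.70), and Ddc in oligodendrocyte-like nuclei (30.3 and 121). The Slc22a3 values rest on few UMIs, as the precursor-like class held 1284370 and 1702223 UMIs in all. Ddc, the decarboxylase that makes dopamine and serotonin, was at the higher level in the female library, but the oligodendrocyte-like class sat in different clusters in each library. Within them Ddc was at 27.1 and 47.1 CPM (109 and 18 UMIs) and at 81.3 and 124.9 CPM (20 and 802 UMIs). In astrocyte-like nuclei it was at 3.32 and 12.6 CPM. Of 8 nicotinic chaperones and Ly6 proteins, 2 were called: Lypd6 in astrocyte-like nuclei and interneurons (84.9 and 63.5, and 45.5 and 44.3 CPM) and Lypd6b in interneurons (72.6 and 68.8). Of 10 G alpha subunits 2 were called, Gna14 in interneurons (35.6 and 39.0 CPM) and Gnai2 in microglia-like nuclei (99.7 and 99.8). Of 7 receptor kinases and arrestins 4 were called, Grk3 (169 and 196 CPM) and Arrb1 (111 and 85.7) in astrocyte-like nuclei, Grk5 in oligodendrocyte precursor-like nuclei (132 and 101) and Arrb2 in microglia-like nuclei (122.8 and 121).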

How the data were processed

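The deposited files hold raw UMI counts per gene and nucleus for 32285 genes, as the authors' run of Cell Ranger 7.0.1 wrote them, per the file headers. The submitters' processing notes also name bcl2fastq 2.20.0.422 and the genome build mm10. The gene annotation release, intronic reads, strand use and cell calling: not given in the sources used here.

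Nuclei passed with 500 or more genes and up to 5% mitochondrial UMIs (16034 male and 19251 female). Doublets were called with Scrublet, in the male library at its automatic threshold (9.57%) and in the female library, where that threshold called 0%, at the highest scores (7.51%), and clusters with over 40% called doublets were removed. With scanpy 1.11.5 (numpy 2.4.6, scipy 1.17.1), 3000 variable genes without receptor genes, Stra8, sex-linked check genes and mitochondrial genes, 40 components and 15 neighbours gave Leiden clusters at resolution 1, without integration. A cluster took a name when at least 3 of 8 markers were over 2-fold and at 20 CPM and a marker was among its 20 leading genes; a first scoring was revised after its output was seen, which changed no name. The GABAergic nuclei were clustered again in the same way.

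CPM, shares and ratios were computed here from counts summed per library and class. Total UMIs were 103262825 (male) and 108286856 (female). Shares were also taken after thinning each nucleus to 1000 UMIs (366 male and 1182 female nuclei were shallower and dropped). Intervals are exact Poisson for CPM and exact binomial for ratios. With 1 library per sex no test was run, and calls are fixed limits of size, 3-fold for classes and 2-fold between libraries. Genes with at least 200 UMIs were named throughout, and those below by range or count. Values of 1 receptor gene, counted among the totals, are not reported here. The receptor genes and lists were chosen with earlier results of these data known. Alternatives were doublet removal, filters, resolution, thinning, added CPM, the call limits and, added after seeing the data, leaving out 1 interneuron sub-cluster. Gene spans come from GENCODE vM21, which held 32235 of the gene IDs, and start sites from RefSeq GRCm38.p6.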

Additional observations from a re-analysis of the deposited data

How the results depend on the processing

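With a 2-fold limit 15 of 35 receptor genes were class-enriched (36.5% of all genes) and with a 5-fold limit 2 (9.75%), against 6 at 3-fold (18.5%). Under other filters, resolutions and thinning the count of receptor genes was between 5 and 8. Without the Gm2164 and Tshz2 interneuron sub-cluster, chosen after seeing the data, it was 7. The 4 pairs past 2-fold between libraries became 2 with no doublets removed, 7 at Leiden resolution 0.5, 13 with 1 CPM added and 1 with 20 CPM added. Among single genes, the interneuron enrichment of Chrm2 moved from 2.48 (log2) to 3.65 at resolution 0.5. The male to female value (log2) of Adrb1 in microglia-like nuclei went from -0.50 to 0.43 with a stricter filter (1000 genes or more, mitochondrial UMIs up to 1%). The causes were not tested. Depth limits the 11 genes under 50 UMIs, for which no class can be read. No paired analysis was possible because there is 1 library per sex. Leaving out a library leaves no comparison. The interneuron sub-clusters were computed under 1 setting.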
